A study of Mus musculus with 4 samples.

Results

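The genes described here are 31 markers and regulators of the astrocyte and oligodendrocyte lineages, 16 for astrocytes and 15 for oligodendrocytes, out of 18193 genes with a probe set on the arrays. They were taken by name from a list that was drawn up with earlier results of these arrays known, and each gene is represented by whichever of its probe sets averaged highest. The other probe sets of a gene served as a check, which gave 91 probe sets for the 31 genes. A pair of sublines from one cell system was compared, GIC, the glioma-initiating cell-like and tumorigenic subline, and non-GIC, the nontumorigenic one, with 2 arrays each. Both descend from neural stem cells of the C57BL/6 telencephalon at embryonic day 14.5, both lack p53, and both carry the HRasL61 oncogene with EGFP (pCMS-EGFP-HRasL61) together with the resistance plasmid pBabe-neo. The stem cells had been grown as floating spheres in serum-free medium with bFGF, 10 ng/ml PDGF and 5 µM forskolin, and transfected cells were selected in 0.5 mg/ml neomycin and sorted for GFP. No untransfected stem cells and no p53-carrying cells were among the arrays, so every level below belongs to cells with both lesions. Whether the arrays within a subline stand for separate cultures is not in the labels, so the p-values reflect just the scatter of these 4 arrays, and that scatter may be technical.

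Neural stem cells of the embryonic forebrain give rise to neurons first and to glia later. Astrocytes take up glutamate and potassium around synapses, are coupled by gap junctions and supply lipids. The nuclear factor I proteins Nfia and Nfib switch on many of their genes, and cytokine signals through Stat3, BMP and Notch favour this fate. Oligodendrocytes arise from precursors that carry Olig1, Olig2, Cspg4 (NG2) and the PDGF receptor Pdgfra, and they wrap axons in myelin built from proteins such as Mbp, Mog, Mag and Cnp. Many astrocyte genes are shared with radial glia, the stem cells of the embryonic brain, so a single marker does not name a cell type.

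As a whole the glial genes, like most genes on the arrays, differed little between the tumorigenic and the nontumorigenic subline. Of the 31 genes, 28 had group means within 0.5 of each other on the log2 scale, against 15156 of all 18193 genes. The 28 include the 11 genes that lay under the level filter on every array. The median difference, GIC minus non-GIC, was -0.07, against -0.02 over all genes. Clu stood out, 5.24-fold higher in GIC, and was the single gene of the 31 with a difference of at least 2-fold, a size reached by 5.22% of all genes. None of the 20 glial genes that passed the level filter met an adjusted p of 0.05 in limma's moderated test over all 13366 tested genes, where 1.92% were called (1.23% higher and 0.688% lower in GIC), so that 0 of 20 is near the background. An unadjusted p under 0.05 was found for 2 of the 20, Clu and Glul, against 17.9% of tested genes. The arrays of the sublines did not overlap in 15 of the 31 genes, 6 higher and 9 lower in GIC, against 47.0% of all genes (22.8% higher and 24.2% lower). Among the 20 tested glial genes 8 did not overlap, 5 higher and 3 lower, against 50.4% of tested genes. For any one gene the smallest p that exact permutation of 4 arrays allows is 0.333.

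**Figure D1:**
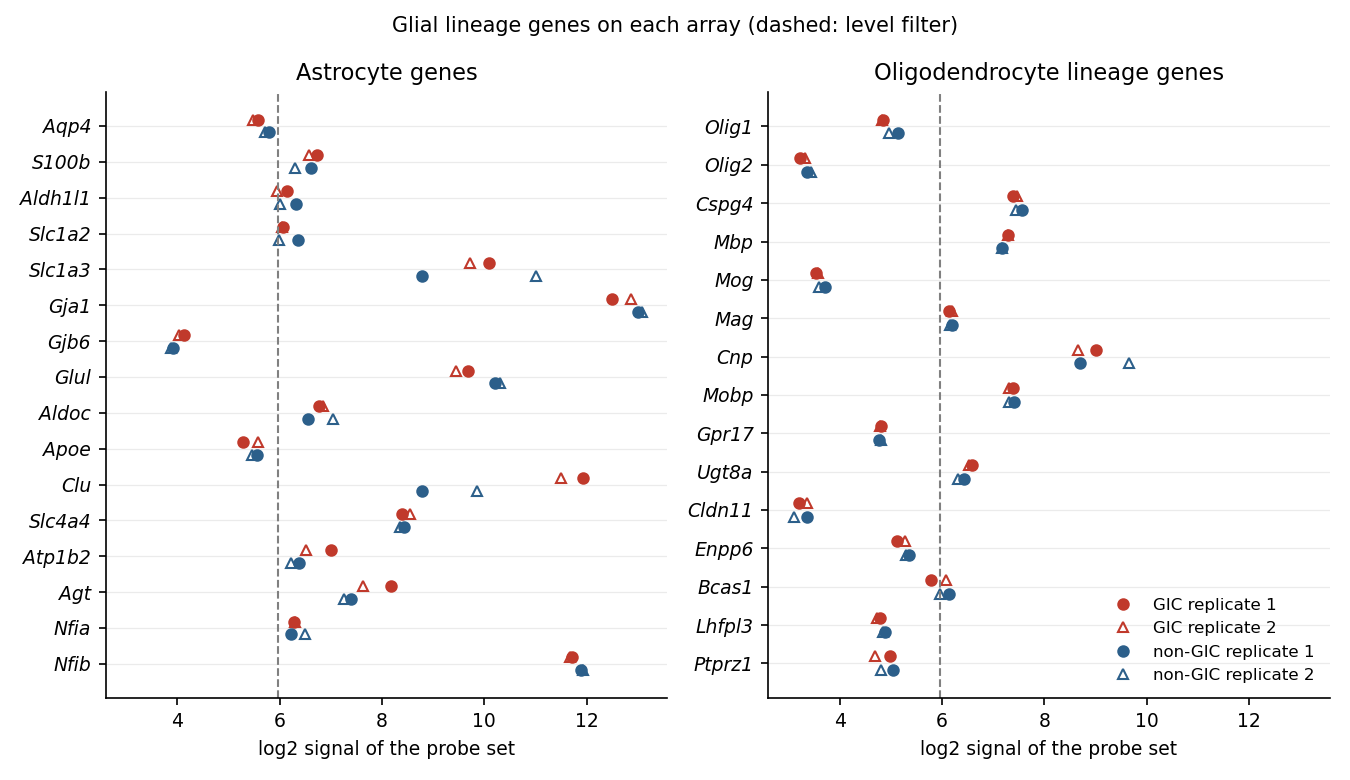
Log2 signal of the chosen probe set of each gene on each array, astrocyte genes on the left and oligodendrocyte lineage genes on the right, with GIC above non-GIC in each row; the dashed line is the level filter at 5.97. Clu is separated by subline, Slc1a3 differs between the non-GIC arrays, and 11 genes lie left of the line on every array.

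Levels were judged against a filter at the 40th percentile of all values, a log2 signal of 5.97. A gene was tested when at least 2 arrays lay above it. The astrocyte set had 13 of 16 genes past this filter and the oligodendrocyte set 7 of 15. The 11 other genes lay under it on all 4 arrays, with signals from 3.10 to 5.80. These were Aqp4, the water channel of astrocyte endfeet, the connexin Gjb6 and the lipid carrier Apoe, and on the oligodendrocyte side Olig1, Olig2, Mog, Gpr17, Cldn11, Enpp6, Lhfpl3 and Ptprz1. Detection calls were not used here, so none of them is called absent. Their differences ran from -0.23 for Aqp4 to 0.18 for Gjb6, and without the filter their adjusted p lay between 0.388 and 0.976.

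Clu encodes clusterin, a secreted chaperone that astrocytes make in quantity and that many other cells also express. Its log2 signal was 11.93 and 11.49 in GIC, against 8.79 and 9.85 in non-GIC. Both GIC arrays were above both non-GIC arrays, and the non-GIC arrays were themselves 2.09-fold apart. The difference was 2.39 (SE 0.40, 95% interval 1.33 to 3.45), with an adjusted p of 0.0772 in limma, so it did not pass over all genes. All 4 Clu probe sets gave the same direction without overlap, with differences from 2.25 to 2.60. The fold was 3.62 with non-GIC replicate 1 left out and 7.57 with replicate 2 left out, and it was 4.50 and 6.09 when GIC replicate 1 or 2 was left out. Across these and the other alternatives named in the methods the adjusted p lay between 0.0704 and 0.227. Clu passed in a fit that paired the arrays crosswise. That pairing was added after seeing the data and is not in the labels, so no support is drawn from it.

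Glul encodes glutamine synthetase, with which astrocytes convert the glutamate they take up. Its signal was 9.68 and 9.44 in GIC and 10.20 and 10.31 in non-GIC. Both GIC arrays were below both non-GIC arrays, by more than either pair of arrays differed. The difference was -0.69 (SE 0.18, 95% interval -1.16 to -0.23), which is 1.62-fold lower in GIC with an adjusted p of 0.155. Its other probe set gave -0.64, again without overlap.

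Among the gap junction and transporter genes, Gja1 (the main astrocyte connexin) had signals of 12.49 and 12.87 in GIC and 13.00 and 13.08 in non-GIC. GIC was the lower group on each of the 6 Gja1 probe sets, with differences from -0.33 to -0.56 and no overlap on any of them. For the chosen probe set the difference was -0.36 (95% interval -0.81 to 0.09, adjusted p = 0.370). It was -0.17 without GIC replicate 1 and -0.54 without GIC replicate 2. Slc4a4, the sodium bicarbonate cotransporter, had 8.40 and 8.55 in GIC and 8.43 and 8.34 in non-GIC. Those groups overlapped, and the interval of the difference ran from -0.32 to 0.48. Atp1b2, the glial beta subunit of the sodium pump, had 7.00 and 6.51 in GIC and 6.38 and 6.22 in non-GIC. Both GIC arrays were the higher ones, by 0.46 on average (adjusted p = 0.331), or by 0.21 without GIC replicate 1.

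The glutamate transporter Slc1a3 (GLAST), a marker shared by radial glia and astrocytes, differed more within non-GIC than between the sublines. Its signal was 10.09 and 9.72 in GIC, against 8.78 in non-GIC replicate 1 and 11.00 in non-GIC replicate 2. Both GIC arrays thus lay between the non-GIC arrays, which were 4.65-fold apart. A gap between the non-GIC arrays at least this large was found in 52 of the 13366 tested genes (0.389%). All 5 Slc1a3 probe sets past the filter put the GIC arrays between the non-GIC arrays, with non-GIC replicate 2 above replicate 1 by 0.70 to 2.22. The group difference was 0.01 with a 95% interval of -1.95 to 1.97, and it was -1.10 when non-GIC replicate 1 was left out and 1.12 when replicate 2 was. The data therefore bound a change of Slc1a3 poorly in either direction. Its paralogue Slc1a2 (GLT-1), the main transporter of mature astrocytes, lay near the filter with 6.07 and 6.05 in GIC and 6.36 and 5.99 in non-GIC.

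**Figure D2:**
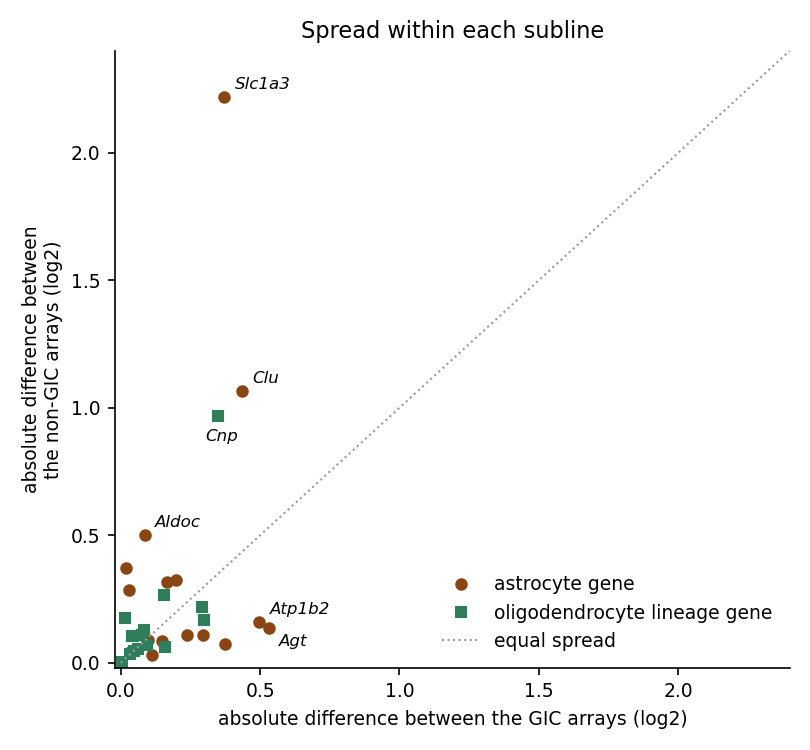
Absolute log2 difference between the GIC arrays (horizontal) and between the non-GIC arrays (vertical) for each of the 31 genes; the dotted line marks equal spread. Slc1a3, Clu and Cnp lie far above the line, and Agt and Atp1b2 have the larger gap between the GIC arrays.

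The median gap between arrays was 0.11 in GIC and 0.11 in non-GIC over the 31 genes, against 0.17 in each over all genes. For the 16 astrocyte genes it was 0.18 in GIC and 0.15 in non-GIC, near that of all genes. For the 15 oligodendrocyte genes it was 0.08 in GIC and 0.10 in non-GIC, and 8 of these lay under the filter on every array. Between the non-GIC arrays 2 glial genes were at least 2-fold apart, Slc1a3 and Clu (6.45% against 2.37% of all genes). None of the 31 was that far apart between the GIC arrays, against 2.52% of all genes. Both Slc1a3 and Clu were higher on non-GIC replicate 2 than on replicate 1. Among the 29 other listed astrocyte genes 5 had such a gap (17.2% against 2.37% of all genes), and all 5 were higher on non-GIC replicate 2. They were Sox9, Dio2, Id3, Sparcl1 and Gpc4, all but Sox9 named after their values were seen. The direction over all genes with such a gap is not given here. The deiodinase Dio2 had 6.41 and 6.97 in GIC against 6.10 and 9.61 in non-GIC, and the matrix protein Sparcl1 had 4.33 and 4.65 in GIC against 5.11 and 7.80 in non-GIC. Sparcl1 lay under the filter on every array but non-GIC replicate 2 and was not tested. The transcription factor Sox9 had 10.13 and 9.24 in GIC against 7.66 and 8.76 in non-GIC. Its difference between the sublines was 1.47 (adjusted p = 0.231), and all 3 of its probe sets were higher in GIC without overlap. A higher signal on non-GIC replicate 2 was not shared by all glial genes, since the 3 other oligodendrocyte genes with such a gap, Tspan2, Aspa and Car2, were higher on non-GIC replicate 1.

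Of the remaining astrocyte genes, the angiotensin precursor Agt had 8.17 and 7.64 in GIC and 7.40 and 7.26 in non-GIC. Its GIC arrays were both higher, with a difference of 0.57 and an adjusted p of 0.282, and the fold of 1.49 became 1.24 without GIC replicate 1 and 1.79 without GIC replicate 2. The calcium-binding protein S100b had 6.73 and 6.57 in GIC and 6.62 and 6.30 in non-GIC, and the glycolytic enzyme Aldoc had 6.76 and 6.85 in GIC and 6.55 and 7.05 in non-GIC. The folate enzyme Aldh1l1 had 6.14 and 5.94 in GIC and 6.33 and 6.00 in non-GIC. In each of these 3 genes the groups overlapped, and all adjusted p were 0.588 or more.

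The gliogenic transcription factors Nfia and Nfib differed by no more than 0.23. Nfib had 11.70 and 11.67 in GIC, against 11.89 and 11.94 in non-GIC. The gap of -0.23 was small but larger than the spread within either pair, and all 7 Nfib probe sets were lower in GIC, 5 of them without overlap, by 0.10 to 0.24. It did not pass (adjusted p = 0.474). Nfia had 6.28 and 6.31 in GIC and 6.22 and 6.50 in non-GIC, with the GIC arrays between the others.

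**Figure D3:**
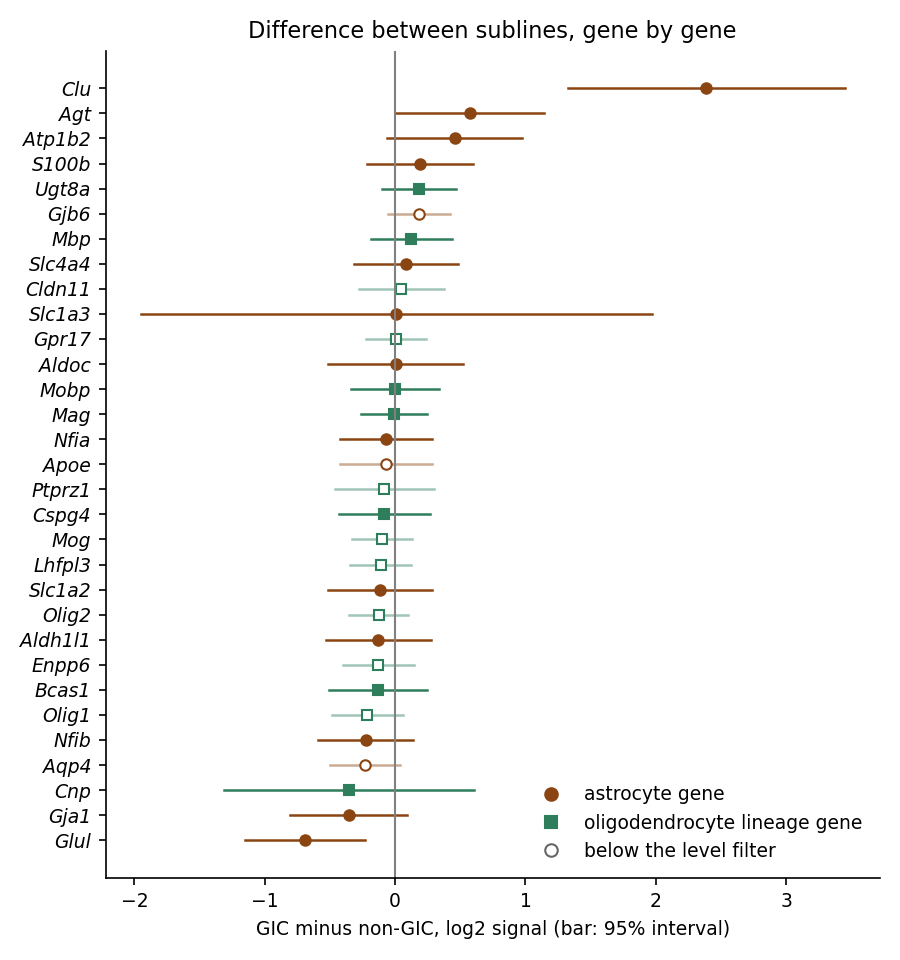
Difference of group means, GIC minus non-GIC, in log2 signal for each of the 31 genes in order of size, with the 95% interval of limma's moderated test as a bar; open symbols are genes under the level filter, whose bars come from a fit without the filter. Clu and Glul are the genes whose interval leaves out 0, and the Slc1a3 interval from -1.95 to 1.97 is the widest.

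The differences of the oligodendrocyte lineage genes ran from -0.35 for Cnp to 0.18 for Ugt8a. Of the precursor genes, the proteoglycan Cspg4 had 7.38 and 7.46 in GIC and 7.57 and 7.44 in non-GIC, with overlapping groups and an interval of -0.43 to 0.26. The helix-loop-helix factor Olig2 had 3.23 and 3.32 in GIC and 3.37 and 3.44 in non-GIC, and its relative Olig1 had 4.84 and 4.82 in GIC and 5.13 and 4.95 in non-GIC. For both Olig genes the GIC arrays were the lower ones, under the filter on every array. The chondroitin sulfate receptor phosphatase Ptprz1 had 4.98 and 4.69 in GIC and 5.03 and 4.81 in non-GIC, and Lhfpl3, a precursor marker, had 4.78 and 4.73 in GIC and 4.89 and 4.84 in non-GIC. The receptor Gpr17 of committed precursors had 4.81 and 4.78 in GIC and 4.77 and 4.80 in non-GIC.

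Of the genes of myelin and of differentiating oligodendrocytes, Cnp, a phosphodiesterase of myelin membranes, had 9.00 and 8.65 in GIC and 8.69 and 9.66 in non-GIC. As with Slc1a3, non-GIC replicate 2 was the highest array, and the difference of -0.35 (adjusted p = 0.675) was 0.13 without that array and -0.84 without non-GIC replicate 1. With all 4 arrays the 3 Cnp probe sets were each lower in GIC, by 0.25 to 0.35, 1 of them without overlap. Mbp, myelin basic protein, had 7.30 and 7.29 in GIC and 7.17 and 7.17 in non-GIC. That gap of 0.13 was larger than the spread between arrays but was seen on 1 of the 4 Mbp probe sets past the filter without overlap, and another of them gave -0.12 without overlap. The galactosyltransferase Ugt8a, which makes myelin galactolipids, had 6.58 and 6.53 in GIC and 6.42 and 6.32 in non-GIC (difference 0.18, adjusted p = 0.455). Its other probe set lay under the filter on every array, with a difference of 1.03. The adhesion protein Mag and the myelin protein Mobp differed by 0.01 or less, with intervals of -0.27 to 0.25 and -0.34 to 0.33. Bcas1, a marker of early myelinating cells, had 5.78 and 6.07 in GIC and 6.14 and 5.97 in non-GIC. Under the filter, the difference was -0.10 for Mog, a late myelin surface protein, -0.13 for the choline phosphodiesterase Enpp6 and 0.05 for the tight junction protein Cldn11.

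**Figure D4:**
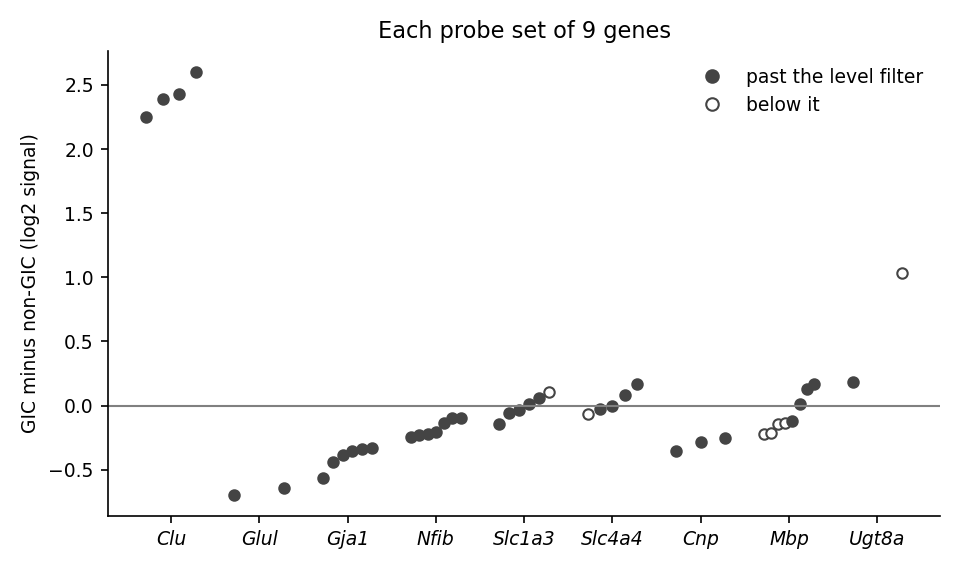
Difference, GIC minus non-GIC, in log2 signal for every probe set of 9 glial genes; filled points are probe sets past the level filter and open points lie under it. All probe sets of Clu are above 0, all of Glul, Gja1, Nfib and Cnp are below 0, and those of Slc1a3, Slc4a4 and Mbp lie on both sides.

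Promoter sequence was available from RefSeq (build GRCm38.p6) for 23 of the 31 genes, and Clu was not among them. The 250 bases upstream of the start are shown for Gja1, Glul and Slc1a3. They were picked as the gap junction and glutamate-handling genes well above the filter, 2 of them lower in GIC on all their probe sets and 1 that varied within non-GIC. Capitals mark matches to any of 4 motifs on either strand, TGANTCA (AP-1), TTCNNNGAA (STAT), CAGCTG (an E-box of helix-loop-helix factors) and TTGGCA (an NFI half-site). Each sequence reads 5′ to 3′ towards the start, and no matches overlapped.
Gja1 (chr10:56377050-56377299, plus strand): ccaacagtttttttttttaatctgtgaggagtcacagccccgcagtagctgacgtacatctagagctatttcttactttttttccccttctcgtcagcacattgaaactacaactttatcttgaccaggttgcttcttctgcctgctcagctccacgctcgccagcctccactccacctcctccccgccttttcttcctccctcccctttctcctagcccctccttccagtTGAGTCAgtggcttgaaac
Glul (chr1:153899679-153899928, plus strand): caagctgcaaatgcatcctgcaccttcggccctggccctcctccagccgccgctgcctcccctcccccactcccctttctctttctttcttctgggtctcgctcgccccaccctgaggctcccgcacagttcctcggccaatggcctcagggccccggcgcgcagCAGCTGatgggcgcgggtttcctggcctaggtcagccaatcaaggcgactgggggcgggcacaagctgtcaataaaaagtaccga
Slc1a3 (chr15:8710808-8711057, minus strand): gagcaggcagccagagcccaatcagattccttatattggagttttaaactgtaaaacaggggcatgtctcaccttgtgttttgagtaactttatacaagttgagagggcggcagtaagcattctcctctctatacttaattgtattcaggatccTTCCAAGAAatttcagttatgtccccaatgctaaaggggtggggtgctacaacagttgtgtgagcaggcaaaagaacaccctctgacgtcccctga
The Gja1 sequence held TGAGTCA, 19 to 13 bases before the start, the Glul sequence held CAGCTG and the Slc1a3 sequence held TTCCAAGAA. TGANTCA was found in 1 of the 23 glial genes and in 7.82% of 27025 genes with a promoter, and CAGCTG in 2 of 23 and 14.7%. TTCNNNGAA was in 4 of 23 (Agt, Aldoc, Mag and Slc1a3) and in 8.13% of all, and TTGGCA in 5 of 23 (Aldoc, Apoe, Cnp, Cspg4 and S100b) and in 14.1% of all. These matches describe letters in the window and no binding was measured.

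The other genes of these lineages were examined in 3 further lists. Of 29 other astrocyte genes with a probe set, 24 were tested and none passed limma's adjusted p of 0.05, with 6 at an unadjusted p under 0.05. Over all tested genes limma called 1.92%, and 17.9% had an unadjusted p under 0.05. The intermediate filament Gfap had 6.47 and 6.51 in GIC and 6.70 and 6.70 in non-GIC (difference -0.21, adjusted p = 0.389). The mitochondrial glutamate carrier Slc25a18 had 5.80 and 5.91 in GIC and 6.55 and 6.56 in non-GIC (-0.70, adjusted p = 0.0560). It passed the filter through its non-GIC arrays alone, so the size of the change rests on GIC signals under the filter. Its adjusted p was 0.0473 with quantile normalization and 0.0496 with median centring, and 0.0689 without the filter. Thrombospondin 1, Thbs1, had 13.89 and 13.52 in GIC and 12.18 and 12.63 in non-GIC (1.30, adjusted p = 0.0788). Of 27 other oligodendrocyte genes, 21 were tested, 7 had an unadjusted p under 0.05 in limma, and 1 passed and fell. This was Sox6, a transcription factor that holds precursors back from myelination, with 7.28 and 7.09 in GIC and 8.52 and 8.66 in non-GIC. Sox6 was lower on all 4 of its probe sets, by 1.41 on the chosen one (adjusted p = 0.0335). The call was lost without any one array (adjusted p from 0.0858 to 0.135) and when its probe sets were averaged (0.0740). Pdgfra, the receptor for the PDGF in the medium, had 12.51 and 12.09 in GIC and 9.68 and 10.41 in non-GIC, 4.79-fold higher in GIC on the edge of the threshold (adjusted p = 0.0504). It passed with quantile normalization (0.0453), a filter at percentile 60 (0.0492) and averaged probe sets (0.0432), and it did not in the other fits without a block (0.0511 to 0.185). Sox10, the master regulator of the lineage, differed by 0.00, with an interval of -0.34 to 0.35, and its sign changed with the scaling of the arrays.

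A list of 37 genes held the cytokine, BMP, Notch and Hedgehog signals that steer glial fate, besides Dnmt1, Nrg1, Erbb2 and Erbb3. Of these 37 genes, 35 were tested and 2 rose in GIC, against 1.92% of tested genes called. In limma 12 of the 35 had an unadjusted p under 0.05, against 17.9% of tested genes. The list was drawn up with earlier results known. The growth factor Bmp2 had 7.51 and 8.00 in GIC and 4.71 and 4.95 in non-GIC, a difference of 2.92 (adjusted p = 0.0137). It passed the filter through its GIC arrays alone, so the size of the change rests on non-GIC signals under the filter. Without the filter its adjusted p was 0.0142. The Notch ligand Dll1 had 8.99 and 9.22 in GIC and 7.54 and 7.02 in non-GIC, 3.53-fold higher (adjusted p = 0.0439). Other Notch genes of the list were lower in GIC without overlap, Nrarp (-0.94), Jag1 (-0.94), Hey1 (-0.85) and Hes1 (-0.33). Rbpj (0.50) and Notch2 (0.25) were higher without overlap, and for Notch1 and Hes5 the groups overlapped. None of these other Notch genes passed. In the list as a whole, 16 of the 37 genes were higher and 6 lower in GIC without overlap. Over all genes the shares were 22.8% higher and 24.2% lower. Gli2 (2.05), Lifr (1.95), Id1 (1.42) and Stat3 (1.16), named after their values were seen, were among the higher ones and did not pass. The Bmp2 call was lost when either non-GIC array was left out (adjusted p = 0.0815 and 0.0631) and the Dll1 call when any one array was left out (0.0992 to 0.141) or the trend was omitted (0.0517). The cytokine receptor Osmr, named after its values were seen, had 11.33 and 10.99 in GIC against 6.01 and 9.41 in non-GIC, with non-GIC replicate 2 the higher array of its group (difference 3.45, adjusted p = 0.228). The cytokine Lif, the other gene of this list at least 2-fold apart between the non-GIC arrays, lay the other way, with 7.53 and 7.31 in GIC against 7.86 and 6.48 in non-GIC. The median difference of this list was 0.13, against -0.01 for the other astrocyte genes and -0.05 for the other oligodendrocyte genes. The size of the differences, whatever their sign, had a median of 0.13 over the 31 glial genes and 0.17 over all genes, and it was 0.24 over the 92 genes of the 3 other glial lists. No test of a difference between these lists was made.

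**Figure D5:**
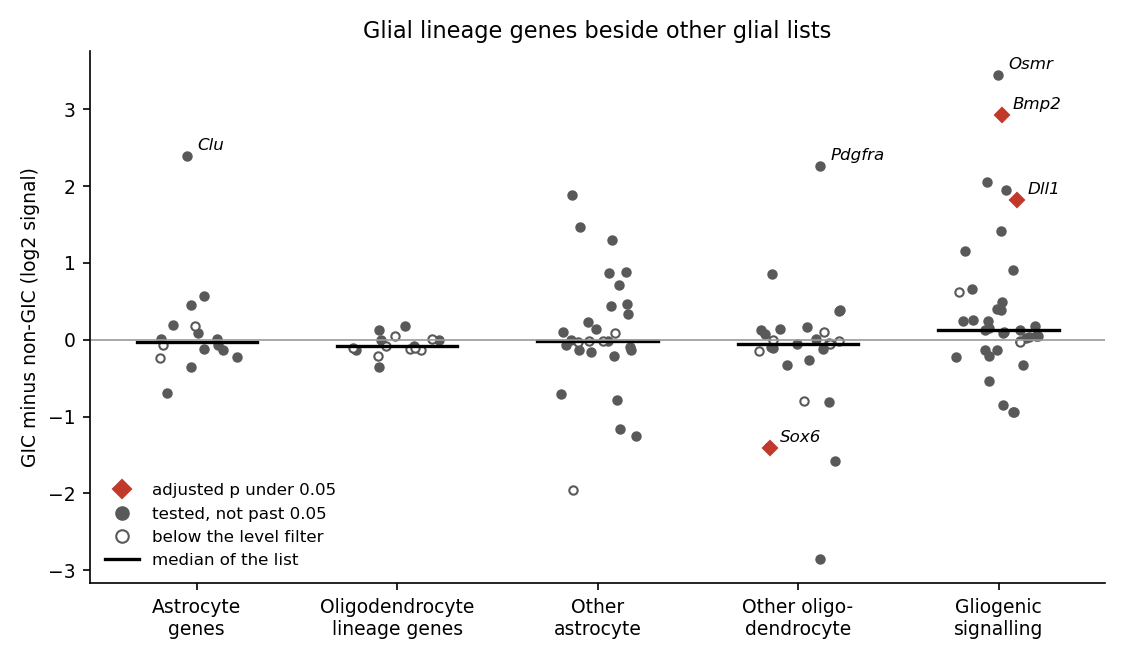
Difference, GIC minus non-GIC, in log2 signal for each gene of the astrocyte and oligodendrocyte lineage genes and of 3 further glial lists; diamonds passed an adjusted p of 0.05, open points lie under the level filter and horizontal lines are medians. Clu is the one point of the first pair of lists beyond 1, and Sox6, Bmp2 and Dll1 are the 3 that passed.

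Genes of other cells gave the setting, and their calls stand beside 1.92% called over all tested genes. Of 12 markers of neural stem cells and progenitors, 8 were above the filter on every array and 3, Prom1, Sox1 and Nr2e1, on none. Neural stem cells are the labelled source. Among the 8 were the filament Nes (9.17 and 8.97 in GIC, 11.45 and 10.81 in non-GIC) and the transcription factor Sox2. Sox2, named outside the rule in the methods, had 10.20 and 10.59 in GIC and 11.15 and 11.44 in non-GIC. Of 12 progenitor genes 9 were tested, with Nes and Fabp7 lower and Cd24a higher in GIC, and of 10 neuronal genes 6 were tested, with Map2 lower (adjusted p from 0.0190 to 0.0459). Each of these 4 calls was lost when any one array was left out (adjusted p from 0.0502 to 0.200), and that of Nes also without the filter (0.0503) or the trend (0.05003). Fabp7 passed the filter through its non-GIC arrays alone and had the same value, 5.23, on both GIC arrays. Of the 10 neuronal genes 4 had a positive difference, among them Tubb3 with 9.77 and 10.06 in GIC and 7.98 and 9.56 in non-GIC. The Tubb3 difference was 1.15 without overlap (adjusted p = 0.363). The log2 of the summed signal was 13.98 and 14.00 in GIC and 13.89 and 14.13 in non-GIC for the astrocyte genes, and 10.46 and 10.35 in GIC and 10.40 and 10.72 in non-GIC for the oligodendrocyte genes. It was 15.01 and 13.95 in GIC and 15.67 and 15.88 in non-GIC for 8 mural and fibroblast genes, of which 6 were tested and Acta2 fell (adjusted p = 0.0348, or 0.200 and 0.164 without non-GIC replicate 1 or 2). Of these 8 genes 4 had a positive difference, Col1a2 (1.26), Lum (1.17), Dcn (0.52) and Rgs5 (0.17). The other 4 were lower in GIC, Col1a1 (-2.06), Acta2 (-1.71), Tagln (-1.24) and Pdgfrb (-0.19). Col1a1 had 13.59 and 10.70 in GIC and 13.84 and 14.57 in non-GIC. For 8 leukocyte genes the log2 of the summed signal was 9.80 and 9.88 in GIC and 9.31 and 9.31 in non-GIC. Such a sum weighs the brightest genes most, and Cd14 alone had 8.76 and 8.96 in GIC and 7.52 and 7.60 in non-GIC. Of the 8 genes 3 were tested, with Cd14 higher (adjusted p = 0.0370 in limma). Ptprc, Aif1, Cx3cr1, Itgam and Tyrobp were not past the filter. Cd68 was higher by 0.53 without overlap (adjusted p = 0.231). The Cd14 call was lost when any one array was left out (0.0893 to 0.204), and Csf1r had a difference of -0.30 without overlap. Of 7 endothelial genes 4 were tested, of 6 ependymal and choroid plexus genes 3 and of 5 Schwann cell genes 5, with none past the threshold; the smallest adjusted p were 0.165 for Flt1, 0.349 for Tmem212 and 0.351 for Pou3f1. The part of other cell types in the glial values was not tested, and a change in the share of cells with a transcript cannot be told apart from a change per cell.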

How the data were processed

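The 4 arrays each hold 1 sample, 2 of the GIC and 2 of the non-GIC subline. The authors deposited 1 log2 signal per probe set and array (log base read from the values, 2.75 to 15.12) for 45101 probe sets. Array medians were 6.58 to 6.63, so scaling had been done; its method is not given in the sources used here. Probe sets were named through the platform annotation, with symbols updated by Entrez identifier to assembly GRCm38.p6, used for names and promoters only. Of these probe sets 34945 had 1 gene, 932 had several and 9160 had none; the last 2 kinds and 64 control probe sets were not tested. Genes with at least 2 arrays above the 40th percentile entered the fit (limma 3.58.1 under R 4.3.3, lmFit and eBayes with trend; subline the sole term; two-sided tests; Benjamini-Hochberg over 13366 genes, threshold 0.05; 2 residual and 2.72 prior degrees of freedom). The procedure was tested on simulated data. Promoter motifs and figures used Python 3.11.15 and matplotlib 3.10.9.

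The members and lists were chosen with earlier results of these data known. All 31 glial genes were to be named, and of the other glial lists the genes past 0.05, otherwise the 2 with the smallest p, besides Gfap, Sox9, Sox10 and Pdgfra; of each list of another cell type, those past 0.05 or the 1 with the smallest p. Some listed genes were not analysed here. Alternatives were the replicate block, quantile normalization, median centring, other level filters, averaged probe sets, no s, x or a probe sets, eBayes without trend or robust, and each array left out in turn. The number of arrays limits the precision.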

Additional observations from a re-analysis of the deposited data

How the results depend on the processing

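No glial gene of the 31 passed under any of 13 alternatives, and 17 of 31 kept their sign in each one that gave a value. Over all genes 257 passed, with 29 under the replicate block and 12 to 188 without 1 array. Of the other glial genes 3 passed, against 1 with the replicate block, 5 with quantile normalization, 5 with median centring, 5 with a filter at percentile 60 and 0 to 1 without 1 array. The labels do not say that equal numbers mark a shared culture, so the numbers were not taken to pair the arrays. Same-numbered arrays deviated in opposite directions (r = -0.32 across genes), which does not show whether they share a culture. Of the named genes that passed, Bmp2 alone did so with the replicate block (adjusted p = 0.0389). A crossed block, added after seeing the data, called 685 genes, 12 of the other glial genes and 1 of the 31, Clu. The median difference of the 31 was -0.083 to -0.016 without 1 array. None of the sign changes below involved a called gene, and their cause was not tested. Aldoc was -0.025 with quantile normalization, -0.028 with median centring, -0.014 with averaged probe sets and -0.031 without s, x and a probe sets. Slc1a3 was -0.023 with median centring and -0.0097 with averaged probe sets, where Mbp was -0.067. Aldh1l1 was 0.00056 without s, x and a probe sets. Sox10 was -0.052 with quantile normalization, -0.028 with median centring and -0.035 with averaged probe sets. Without 1 array, Slc1a3 ran from -1.10 to 1.12, Aldoc from -0.25 to 0.25, Cnp from -0.84 to 0.13, Slc1a2 from -0.30 to 0.067, Aldh1l1 from -0.29 to 0.034, Bcas1 from -0.28 to 0.021, Nfia from -0.21 to 0.074, Mobp from -0.058 to 0.052, Mag from -0.039 to 0.022 and Sox10 from -0.030 to 0.036. Clu, Glul, Apoe, Mbp and Cnp have no value without s, x and a probe sets. A lone remaining array was taken to have the scatter of the other subline.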
